A study of Oryza sativa with 12 samples.

Results

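The 10 genes described here are expansins of rice, 6 of the A family (EXPA1, EXPA2, EXPA3, EXPA4, EXPA5 and EXPA8) and 4 of the B family (EXPB2, EXPB3, EXPB4 and EXPB6). They were taken by gene ID from a list of expansins of seedling growth, out of 35204 IDs measured in each library. All 10 IDs were found and all 10 passed the filter on low values. RNA-seq was done on whole rice seeds set to germinate on filter paper, in 4 groups of 3 libraries each. The groups were osmft1 in 300 mM NaCl, osmft1 in water, Zhonghua 11 (WT) in 300 mM NaCl and WT in water. The osmft1 seeds carry a knockout of OsMFT1, which belongs to a plant gene family named for MOTHER OF FT AND TFL1 and known from seed dormancy, and Zhonghua 11 is the japonica cultivar used as their control. The labels give neither the allele or number of knockout lines nor the time of sampling. Stage of germination therefore cannot be told apart from salt or genotype. Nothing in them ties the 3 libraries of a group to separate plants or seed lots, so every p-value here is set against a spread that may be technical. The locus taken as OsMFT1 in earlier work on these data, Os06g0498800, is not paired with that name in the files. It held 1 to 8 reads in the osmft1 libraries and 1 to 7 reads in the WT libraries, too few to check the genotype.

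Expansins are secreted proteins of the plant cell wall. They loosen the wall without cutting its polymers, by disturbing the contacts between cellulose and the matrix around it, and they act best in an acidified wall. Growing organs such as the coleoptile, the seedling root and the internode express them while their cells elongate. A-family expansins act on the walls of land plants in general, whereas grasses have an enlarged B family that acts on the particular matrix of grass walls. In deepwater rice EXPA4, EXPB3, EXPB4 and EXPB6 are known as genes whose transcripts rise when gibberellin or submergence makes internodes elongate, and EXPA8 is known for its part in root growth.

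The files hold IDs without names, and the names used here come from the list that defined the set. The RefSeq gene table of the assembly ASM3414082v1 lists all 10 names, each on the chromosome that its ID carries. EXPA2 (Os01g0823100) and EXPA8 (Os01g0248900) lie on chromosome 1, EXPA5 (Os02g0744200) on chromosome 2, EXPA1 (Os04g0228400) on chromosome 4, and EXPA3 (Os05g0276500) and EXPA4 (Os05g0477600) on chromosome 5. The 4 B-family genes are neighbours on chromosome 10, in the order EXPB6 (Os10g0555600), EXPB2 (Os10g0555700), EXPB3 (Os10g0555900) and EXPB4 (Os10g0556100). That table places no other gene between them, while the files number 1 other ID between EXPB6 and EXPB4, at 0.592 FPKM or less. Reads of such related neighbours may have been split or lost between them in the authors' counting, so levels within this cluster are less certain than those of the A-family genes.

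The libraries held 14379728 to 15688593 counted reads, and values are in FPKM, that is, reads scaled to the gene's length and to the library's counted reads. At this depth 3 reads, the limit that a count of 0 allows, stood at 0.0795 (EXPB4) to 0.234 FPKM (EXPA8). Differences are in log2(FPKM + 1), which understates the change of low genes, with the standard error (SE) of a limma fit over all 12 libraries. A gene is said to rise or fall at an adjusted p under 0.05 over the 22017 IDs tested. One library, osmft1 salt replicate 1, stood apart from its group at several of these genes, and the results that it moved most are given with and without it. In whole seeds, fewer cells of a type and less RNA per cell cannot be told apart.

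In water EXPB4 was the most abundant of the 10 genes in every library. It stood at 296.0, 312.5 and 327.2 FPKM in the osmft1 water libraries, against 512.0, 511.9 and 594.1 FPKM in the WT water libraries. EXPB3 and EXPB2 came next, at means of 88.9 and 78.7 FPKM in osmft1 water and of 121.9 and 129.7 FPKM in WT water, and their ranges overlapped in both groups. EXPA4 was the most abundant A-family gene in osmft1 water, at 51.6 ± 3.33 FPKM (SD, n = 3), and it did not overlap EXPB6 below it, at 39.2 FPKM. The next A-family gene there, EXPA1, reached 12.1 FPKM at most. In WT water EXPA1 (41.3 ± 13.3 FPKM) and EXPA4 (39.8 ± 9.17 FPKM) overlapped, and EXPA4 overlapped EXPB6, at 35.0 ± 4.94 FPKM (SD, n = 3). EXPA2, EXPA8 and EXPA5 formed a lower tier of 1.63 to 10.6 FPKM in water. EXPA3 was the lowest, at means of 1.28 FPKM in osmft1 water and 1.32 FPKM in WT water, with 65 and 67 reads per group. It reached 1 FPKM in 3 libraries, all in water, and so entered the test only through the condition in which it was high. EXPA1, EXPA8 and EXPB2 reached it in 6 water libraries and 1 salt library each, so they too passed the filter through water. The falls with salt of these 4 genes are counted with that limit.

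**Figure D1:**
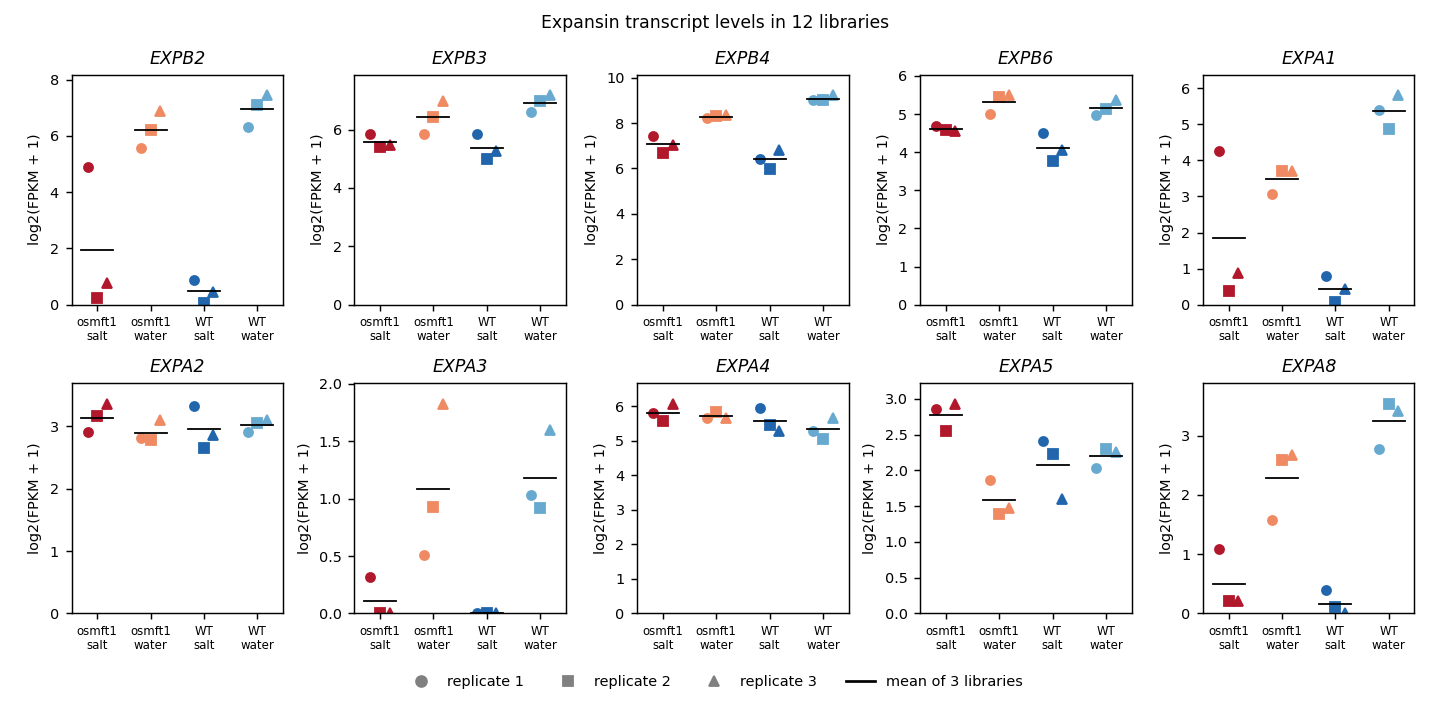
Level of each expansin as log2(FPKM + 1) in every library (points; shape gives the replicate), with the mean of 3 libraries as a line. In EXPB2 and EXPA1 the osmft1 salt library of replicate 1, at 28.5 and 18.1 FPKM, lies far above the other salt libraries, which are all under 1 FPKM.

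Falls outnumbered rises with salt in both genotypes. In osmft1, 6 of the 10 genes fell (EXPB2, EXPB3, EXPB4, EXPB6, EXPA3 and EXPA8), EXPA5 rose, and EXPA1, EXPA2 and EXPA4 did not pass the test. The falls in osmft1 numbered 4 without osmft1 water replicate 3, osmft1 salt replicate 2 or osmft1 salt replicate 3, and 7 without osmft1 salt replicate 1. Of all IDs tested 46% were called in that comparison, 25.5% as lower and 20.5% as higher. After median-ratio scaling 4919 IDs were lower and 5064 higher. Upper-quartile scaling and leaving out the 50 most abundant IDs kept more IDs lower than higher. In WT, 7 of the 10 fell (the same 6 and EXPA1) and none rose. There 55.9% of all IDs tested were called, 28.2% as lower and 27.7% as higher. Without the 50 most abundant IDs 5552 were lower and 6846 higher, while median-ratio and upper-quartile scaling kept more lower than higher. The falls and the medians below take in EXPB2, EXPA1, EXPA3 and EXPA8, which passed the filter through water. Of the genes at 1 FPKM or more in all 12 libraries, EXPB3, EXPB4 and EXPB6 fell in both genotypes, and EXPA2, EXPA4 and EXPA5 in neither. The median difference of the 10 genes was -0.91 in osmft1, and -1.03 without osmft1 salt replicate 1. Over all tested IDs the osmft1 median was -0.11, and -0.04 after median-ratio scaling. In WT the median of the 10 genes was -1.37. Over all tested IDs the WT median was 0.04, and 0.12 without the 50 most abundant IDs. EXPA3 had no read in WT salt, and 3 reads over the group allow a log2 ratio of reads of -4.41. With EXPA3 set at that ratio the WT median was -2.11. The ratio has no pseudocount, while the other genes kept theirs. The -2.11 therefore mixes scales and cannot be set beside the osmft1 median.

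In log2(FPKM + 1), EXPB2 had the deepest fall of the set in both genotypes. It stood at 28.5, 0.166 and 0.714 FPKM in the osmft1 salt libraries, against 46.9, 72.8 and 116.3 FPKM in the osmft1 water libraries. Replicate 1 was the high salt library, at 36.2% of the osmft1 water mean, while the other salt libraries were at 0.211% and 0.908% of it. The difference was -4.26 ± 0.93 (SE; limma, adjusted p = 0.00311), the 10th lowest of the 22017 IDs. Without osmft1 salt replicate 1 it was -5.72 (limma, adjusted p = 5.86e-06). In reads, 549 in the osmft1 salt libraries stood against 4537 in the osmft1 water libraries, which is 7.90-fold lower with the replicate. Without the replicate, 16 reads against 4537 made EXPB2 179-fold lower (exact 95% interval 110 to 313, counting error only). With all osmft1 libraries, EXPA3 (15.5-fold, 4 reads in salt) and EXPA8 (8.51-fold, 19 reads in salt) were lower by more than EXPB2. In WT, EXPB2 stood at 0.824, 0.0534 and 0.381 FPKM in salt, against 79.0, 137.2 and 172.8 FPKM in water. That is a difference of -6.49 ± 0.93 (SE; limma, adjusted p = 0.000117), the 9th lowest of the 22017 IDs, with no overlap between the groups. The 23 reads in WT salt against 7504 in WT water made it 311-fold lower (exact 95% interval 207 to 490, counting error only).

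EXPB4 fell by a smaller factor from a higher level. In osmft1 it had 173.6, 101.5 and 131.8 FPKM in salt, against 296.0 to 327.2 FPKM in water, a difference of -1.23 ± 0.21 (SE; limma, adjusted p = 0.000661). Without osmft1 salt replicate 1 that difference was -1.42 (limma, adjusted p = 0.000359). WT seeds had 85.6, 62.0 and 111.0 FPKM in salt, against 511.9 to 594.1 FPKM in water, a difference of -2.67 ± 0.21 (SE; limma, adjusted p = 1.81e-06). The salt and water libraries did not overlap in either genotype. The mean of the salt libraries was thus 43.5% of the water mean in osmft1 and 16.0% in WT. EXPB4 was still the most abundant of the 10 genes in all 6 salt libraries, with EXPA4 and EXPB3 next and overlapping in both genotypes.

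The neighbours EXPB3 and EXPB6 kept more of their level. EXPB3 had 57.0, 41.3 and 43.6 FPKM in osmft1 salt, against 56.8, 85.3 and 124.5 FPKM in osmft1 water, so the highest salt library was level with the lowest water library. Its difference of -0.84 ± 0.28 (SE; limma, adjusted p = 0.0294) was lost under 6 of 22 other settings (adjusted p up to 0.117), among them those without osmft1 water replicate 2 or 3 and without osmft1 salt replicate 2 or 3. The WT libraries had 56.7, 31.1 and 37.5 FPKM in salt, against 97.1, 126.0 and 142.6 FPKM in water, a difference of -1.55 ± 0.28 (SE; limma, adjusted p = 0.00063). EXPB6 had 22.5 to 24.6 FPKM in osmft1 salt, against 31.2 to 43.9 FPKM in osmft1 water (-0.71 ± 0.19, SE; limma, adjusted p = 0.00901). EXPB6 had 12.7 to 21.8 FPKM in WT salt, against 30.6 to 40.4 FPKM in WT water (-1.05 ± 0.19, SE; limma, adjusted p = 0.000564), again with no overlap.

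The ratio of EXPB2 to its neighbour EXPB3 was lower in every salt library than in any water library. EXPB2 stood at 0.825 to 0.934 of the EXPB3 level in the osmft1 water libraries and at 0.814 to 1.21 of it in the WT water libraries. In salt the same ratio was 0.50, 0.00401 and 0.0164 in the osmft1 libraries and 0.0145, 0.00172 and 0.0102 in the WT libraries. The 5 salt libraries other than osmft1 salt replicate 1 had 1 to 15 reads of EXPB2, between 238 and 415 reads of EXPB6 on its one side and between 606 and 1075 reads of EXPB3 on the other.

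**Figure D2:**
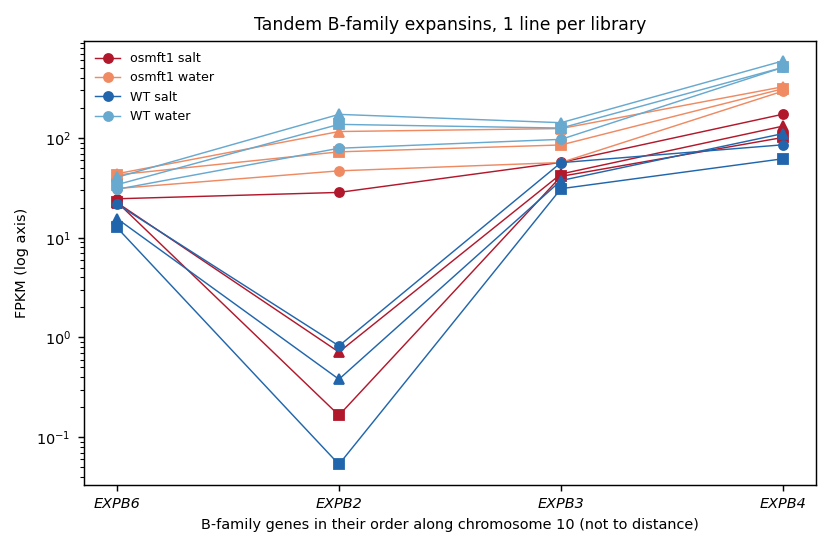
FPKM (log axis) of the 4 tandem B-family genes in their order along chromosome 10, with 1 line per library. In 5 of the 6 salt libraries EXPB2 lies under 1 FPKM between EXPB6 and EXPB3, while osmft1 salt replicate 1 has 28.5 FPKM.

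Among the A-family genes, EXPA1 and EXPA8 fell to under 1 FPKM in every WT salt library, as EXPB2 did. EXPA1 had 0.731, 0.0592 and 0.362 FPKM in WT salt, against 41.4, 28.0 and 54.6 FPKM in WT water, a difference of -4.91 ± 0.76 (SE; limma, adjusted p = 0.00021). That is 19 reads against 2163, or 108-fold lower (exact 95% interval 69.2 to 180, counting error only). In osmft1 it had 18.1, 0.306 and 0.853 FPKM in salt, against 7.33, 11.9 and 12.1 FPKM in water. The salt library of replicate 1 was above all 3 osmft1 water libraries, at 173.8% of their mean, and the other salt libraries were at 2.93% and 8.17% of it. The difference of -1.64 ± 0.76 (SE) did not pass the test (limma, adjusted p = 0.098). Without osmft1 salt replicate 1 it was -2.85 (limma, adjusted p = 7.51e-05), from 19 reads against 542.

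EXPA8 had 1.13, 0.156 and 0.155 FPKM in osmft1 salt, against 2.00, 5.03 and 5.38 FPKM in osmft1 water, a difference of -1.78 ± 0.33 (SE; limma, adjusted p = 0.00123). In WT it had 0.310, 0.0753 and 0 FPKM in salt, against 5.85, 10.6 and 9.66 FPKM in water, a difference of -3.08 ± 0.33 (SE; limma, adjusted p = 1.57e-05). The 5 reads in WT salt against 357 in WT water made it 68.0-fold lower (exact 95% interval 28.9 to 211, counting error only). The groups did not overlap in either genotype, and replicate 1 was again the highest osmft1 salt library. Without that library the osmft1 difference was -2.07 (limma, adjusted p = 0.0007), from 4 reads against 169.

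EXPA3 was near the limit of detection. It had 4 reads in osmft1 salt replicate 1 and 0 in the other osmft1 salt libraries, against 7, 15 and 43 reads in the osmft1 water libraries (-0.98 ± 0.31, SE; limma, adjusted p = 0.0216). This call was lost without osmft1 water replicate 3 or osmft1 salt replicate 2 or 3, and in a fit of the 6 osmft1 libraries alone (adjusted p 0.0559 to 0.0782). In WT it had 0 reads in every salt library, against 18, 15 and 34 reads in water (-1.18 ± 0.31, SE; limma, adjusted p = 0.0062), which is at least 21.3-fold lower against 3 reads over the group.

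EXPA2, EXPA4 and EXPA5 were not called lower with salt in either genotype. EXPA4 had 54.3, 46.9 and 65.6 FPKM in osmft1 salt, against 49.5, 55.5 and 49.9 FPKM in osmft1 water, a difference of 0.09 with a 95% interval from -0.33 to 0.52 (limma, adjusted p = 0.719). In WT it had 60.7, 42.5 and 38.1 FPKM in salt, against 37.5, 32.0 and 49.9 FPKM in water, a difference of 0.23 with an interval from -0.19 to 0.66 (limma, adjusted p = 0.33). The libraries overlapped in both genotypes, and changes within these intervals cannot be told from none. EXPA2 ran from 5.32 to 9.24 FPKM over all 12 libraries. Its salt difference was 0.24 in osmft1 (95% interval -0.16 to 0.64; limma, adjusted p = 0.305) and -0.07 in WT (-0.47 to 0.32; limma, adjusted p = 0.752).

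EXPA5 was the only gene of the 10 called higher with salt, in osmft1. It had 6.28, 4.87 and 6.60 FPKM in osmft1 salt, against 2.66, 1.63 and 1.79 FPKM in osmft1 water, with no overlap. The mean was 2.92 times as high in osmft1 salt, a difference of 1.20 ± 0.22 (SE; limma, adjusted p = 0.00097). In WT it had 4.30, 3.70 and 2.03 FPKM in salt, against 3.11, 3.93 and 3.77 FPKM in water. These libraries overlapped, and the difference of -0.12 (95% interval -0.59 to 0.36) did not pass the test (limma, adjusted p = 0.669).

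**Figure D3:**
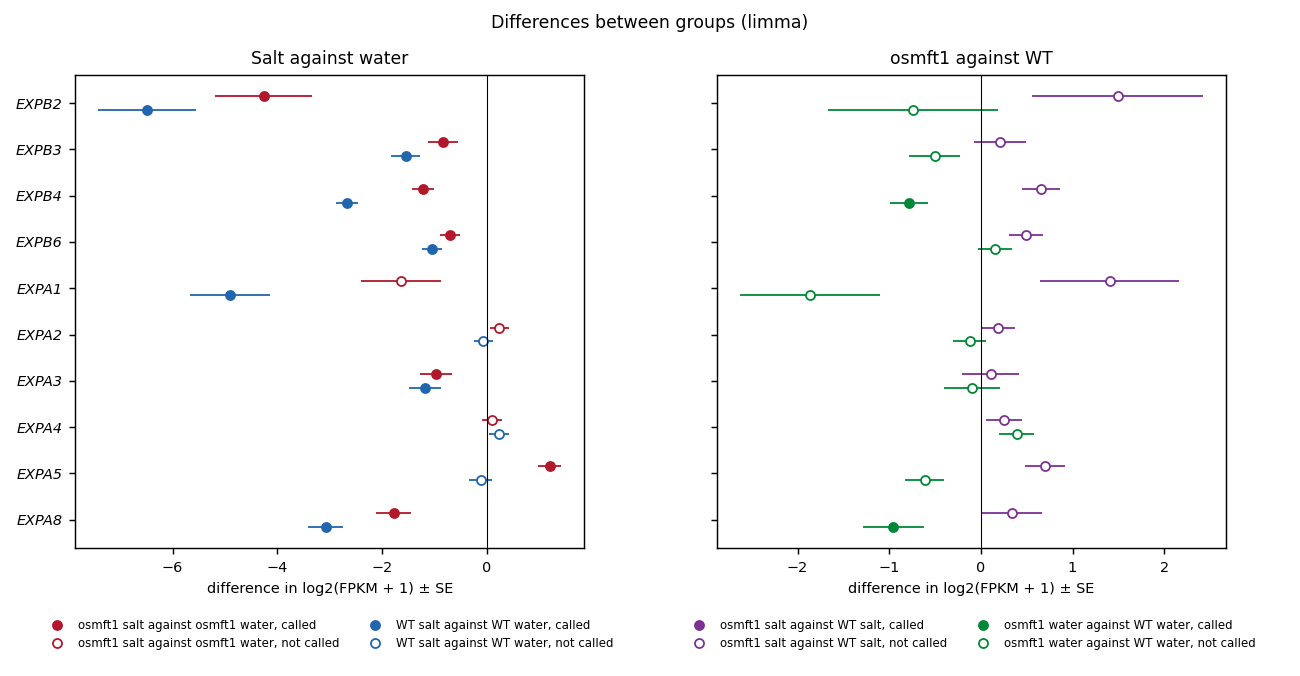
Differences in log2(FPKM + 1) with their SE for salt against water (left) and osmft1 against WT (right), each over 3 libraries per group. Filled points passed an adjusted p under 0.05: 6 falls and 1 rise with salt in osmft1, 7 falls with salt in WT, 2 falls in osmft1 in water and none between the genotypes in salt.

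The make-up of the summed transcripts of these 10 genes also differed between salt and water. RefSeq lists 49 expansin and expansin-like names, so these shares do not stand for the whole family. The 10 genes summed to 292.5 ± 72.8 FPKM in osmft1 salt and 594.7 ± 96.2 FPKM in osmft1 water, and to 202.9 ± 41.9 FPKM in WT salt and 927.9 ± 135.3 FPKM in WT water (SD, n = 3 each). In osmft1 salt replicates 1, 2 and 3 the sum was 370.3, 226.0 and 281.1 FPKM. The A-family genes made up 26.4 ± 2.97% of that sum in osmft1 salt and 12.9 ± 1.23% in osmft1 water. In WT they made up 28.7 ± 5.77% in salt and 10.9 ± 1.45% in water (SD, n = 3 each). EXPA4 alone held 14.7 to 23.3% in osmft1 salt and 7.23 to 9.92% in osmft1 water, and 18% to 27.0% in WT salt and 3.58 to 4.63% in WT water. EXPB2 was at 9.41 to 16.8% in osmft1 water and 9.71 to 16.0% in WT water, and at most 0.343% in salt outside osmft1 salt replicate 1, where it held 7.70%.

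**Figure D4:**
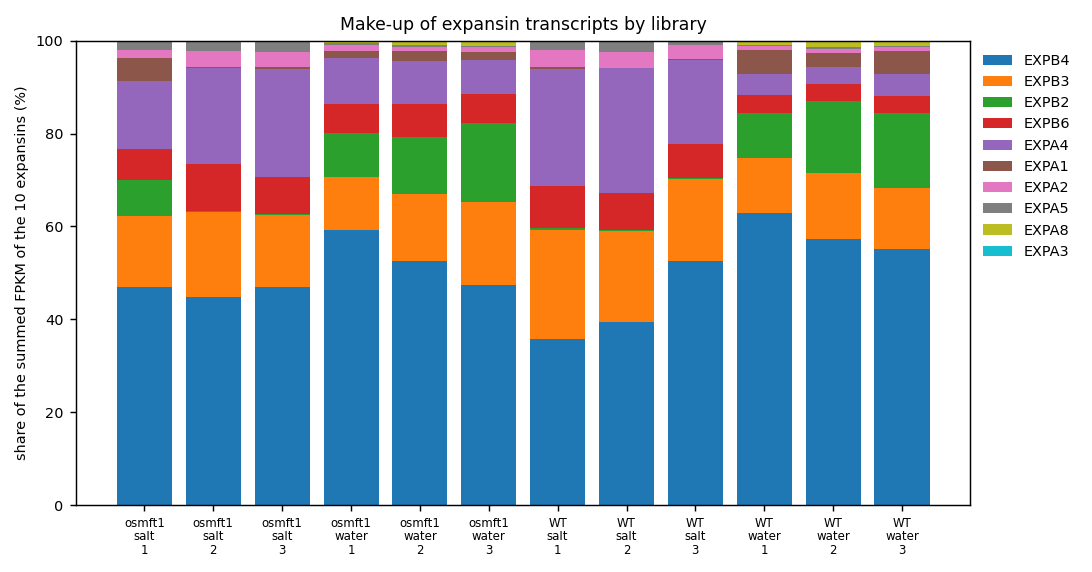
Share (%) of each gene in the summed FPKM of the 10 expansins, 1 bar per library. EXPB2 holds 9.41 to 16.8% in the 6 water libraries and almost nothing in 5 of the 6 salt libraries, where EXPA4 takes a larger share.

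Between the genotypes in water, 2 of the 10 genes were lower in osmft1 (EXPB4 and EXPA8) and none was higher. Of all IDs tested 30.4% were called, 10.4% as lower and 20% as higher. That split depended on the scaling, with 2293 IDs lower and 4410 higher as deposited, 3831 lower and 2970 higher after median-ratio scaling, and 1759 lower and 5505 higher without the 50 most abundant IDs. Upper-quartile scaling gave 2782 lower and 3935 higher. EXPB4 averaged 311.9 ± 15.6 FPKM in the osmft1 water libraries, against 539.4 ± 47.4 FPKM in the WT water libraries (SD, n = 3 each), with no overlap and a difference of -0.79 ± 0.21 (SE; limma, adjusted p = 0.017). The call was lost without osmft1 water replicate 1 (adjusted p = 0.0631) or WT water replicate 3 (adjusted p = 0.0632). EXPA8 had 2.00, 5.03 and 5.38 FPKM in osmft1, against 5.85, 10.6 and 9.66 FPKM in WT, a difference of -0.96 ± 0.33 (SE; limma, adjusted p = 0.0489). This call was lost under 16 of 22 other settings, with an adjusted p of up to 0.228, and it held without 1 library only for osmft1 water replicate 3, osmft1 salt replicate 1 and WT water replicate 1.

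Some genes that did not pass stood clear of each other in water. EXPA1 had 7.33, 11.9 and 12.1 FPKM in osmft1, against 41.4, 28.0 and 54.6 FPKM in WT, a mean ratio of 0.253 with no overlap. Its difference of -1.87 ± 0.76 (SE) missed the threshold in the fit of all 12 libraries (limma, adjusted p = 0.0828). It passed without osmft1 salt replicate 1, which entered the shared estimate of the spread (limma, adjusted p = 0.00235), and in a fit of the 6 water libraries alone (limma, adjusted p = 0.0167). EXPA5 was at 1.63 to 2.66 FPKM in osmft1 and 3.11 to 3.93 FPKM in WT (-0.62 ± 0.22, SE; limma, adjusted p = 0.0505), and it passed under 6 of 22 other settings. EXPB2 and EXPB3 had lower means in osmft1 water with overlapping libraries (-0.74 ± 0.93, SE; limma, adjusted p = 0.573; and -0.50 ± 0.28, SE; limma, adjusted p = 0.19). EXPA2, EXPA3, EXPA4 and EXPB6 differed by -0.12, -0.10, 0.39 and 0.15 (limma, adjusted p 0.147 to 0.834). The median difference of the 10 genes was -0.56, beside 0.11 over all tested IDs, and median-ratio scaling moved that median of all IDs to -0.05. Without osmft1 water replicate 1 the median of the 10 genes was -0.32.

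In salt none of the 10 genes passed the test between the genotypes, where 5.45% of all IDs tested did, 4.33% as higher and 1.12% as lower. The calls numbered 953 higher and 246 lower as deposited, 420 and 309 after median-ratio scaling, and 444 and 328 after upper-quartile scaling. Without the 50 most abundant IDs they numbered 769 and 267. At an unadjusted p under 0.05 limma gave 3 of the 10 genes (EXPA5, EXPB4 and EXPB6), and voom on the recovered reads called 0, with 3 at an unadjusted p under 0.05. All 10 estimates were above 0, as were 60.4% of those of all tested IDs, with a median of 0.41 beside 0.07. Without osmft1 salt replicate 1 the median of the 10 genes was 0.23 and 9 of the 10 were above 0. EXPA5 had 4.87 to 6.60 FPKM in osmft1 and 2.03 to 4.30 FPKM in WT (0.70 ± 0.22, SE; limma, adjusted p = 0.086), and EXPB6 22.5 to 24.6 and 12.7 to 21.8 FPKM (0.49 ± 0.19, SE; limma, adjusted p = 0.156), neither with overlap. EXPB4 had 101.5 to 173.6 FPKM in osmft1 and 62.0 to 111.0 FPKM in WT, with overlap (0.65 ± 0.21, SE; limma, adjusted p = 0.0966). It passed when osmft1 salt replicate 2 or WT salt replicate 3 was left out (adjusted p 0.0493 and 0.0485). Without osmft1 salt replicate 1 the EXPB4 difference shrank to 0.46 (limma, adjusted p = 0.277). The largest estimates, 1.49 for EXPB2 and 1.40 for EXPA1, rested on osmft1 salt replicate 1 and were 0.030 and 0.20 without it. Without that library EXPA8 and EXPB3 were at 0.044 and 0.068, and EXPA3 had no read in either genotype.

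The interaction asked whether the salt difference itself was unlike between the genotypes. It passed for 2 of the 10 genes, EXPB4 and EXPA5, both positive, where 13% of all IDs tested were called, 6.92% as positive and 6.12% as negative. This balance also depended on the scaling. Positive calls numbered 1524 and negative ones 1348 as deposited, and 1948 and 1588 after median-ratio scaling. They numbered 1107 and 2064 when the 50 most abundant IDs were left out, and 1416 and 2102 after upper-quartile scaling. For EXPB4, whose fall was smaller in osmft1 than in WT, it was 1.44 ± 0.30 (SE; limma, adjusted p = 0.0187). For EXPA5, which was called higher in osmft1 and not called in WT, it was 1.32 ± 0.31 (SE; limma, adjusted p = 0.0253). The EXPA5 call was lost under 7 of 21 other settings (adjusted p up to 0.0691), including those without osmft1 water replicate 2, osmft1 salt replicate 1 or 3, or WT water replicate 2 or 3. The EXPB4 call was lost in 1, without both osmft1 libraries numbered 1 (1.21; limma, adjusted p = 0.0757). Without osmft1 salt replicate 1 alone the EXPB4 interaction was 1.25 (limma, adjusted p = 0.0338).

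The other estimates did not pass. For EXPA1 the interaction was 3.27 ± 1.08 (SE; limma, adjusted p = 0.0636), and without osmft1 salt replicate 1 it was 2.06 (limma, adjusted p = 0.0301). Without osmft1 salt replicate 2 it also passed (limma, adjusted p = 0.0231). With replicate 1 left out, EXPA1 had 19 reads in the salt libraries of each genotype. Its genotype difference was then 0.20 in salt and -1.87 in water, so the 2.06 lay mostly in the water libraries. The interaction was 1.30 ± 0.47 for EXPA8 (SE; limma, adjusted p = 0.0844) and 2.23 ± 1.31 for EXPB2 (SE; limma, adjusted p = 0.255). Without osmft1 salt replicate 1 it was 0.77 for EXPB2. For EXPA8 it was 1.00, with a genotype difference of 0.044 in salt and -0.96 in water. EXPB3, EXPB6, EXPA2 and EXPA3 had 0.71, 0.34, 0.31 and 0.20, and EXPA4 had -0.14 (limma, adjusted p 0.23 to 0.767). The median interaction of the 10 genes was 1.00, beside -0.03 over all tested IDs, and it was 0.67 without osmft1 salt replicate 1 and 0.42 without both osmft1 libraries numbered 1.

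**Figure D5:**
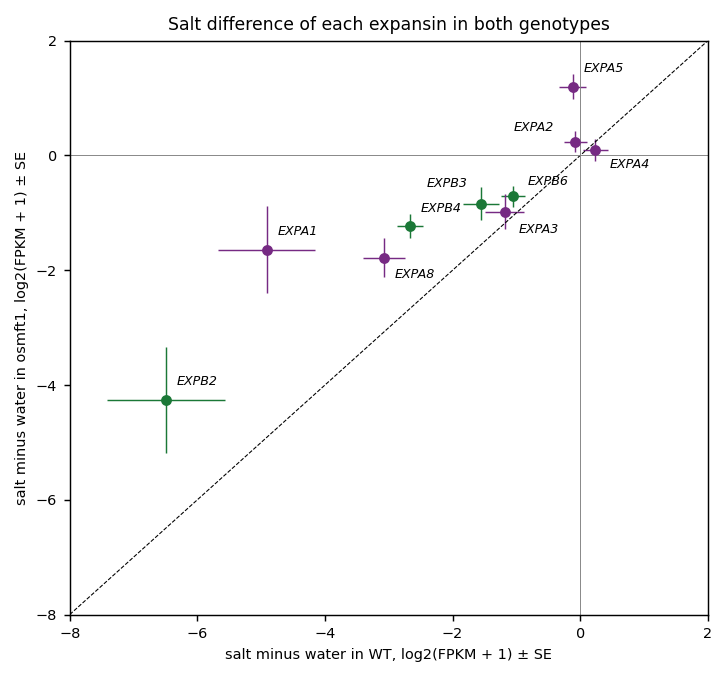
Salt difference of each expansin in WT (x axis) and in osmft1 (y axis), in log2(FPKM + 1) with SE; green marks the B family, purple the A family, and the dashed line equal differences. All genes but EXPA4 lie above the line, and the interaction passed the test for EXPB4 and EXPA5. EXPA3 lies below the line under 4 of the other settings, and EXPA4 above it without WT water replicate 2 or WT salt replicate 1. Of all tested IDs 48.0% had an interaction above 0.

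Across the 12 libraries the 7 genes that fell in WT varied together, with a Pearson r of log2(FPKM + 1) of 0.792 (EXPA1 with EXPB6) to 0.959 (EXPA8 with EXPB3) over their 21 pairs. Their correlations with EXPA2, EXPA4 and EXPA5 ran from -0.471 to 0.158. These values describe libraries that share the contrast of salt and water, and the 7 genes were chosen by it. Among all other tested IDs, those most like EXPB4 over the 12 libraries were Os06g0240001, with an r of 0.995, and Os02g0703900, with an r of 0.993. Os06g0240001 stood at 31.1 ± 4.15 FPKM in osmft1 salt and 58.5 ± 2.71 FPKM in osmft1 water, and at 19.4 ± 3.11 FPKM in WT salt and 91.2 ± 9.58 FPKM in WT water (SD, n = 3 each).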

How the data were processed

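The authors deposited 1 column of values per library, from total RNA of whole seeds. HTSeq 0.6.0, HISAT2 2.1.0 and Bowtie2 2.2.3 are listed without roles in the submitters' processing notes, beside IRGSP-1.0 as the genome build. Which annotation and strand setting were used is not given in the sources used here, so reads of an antisense or overlapping gene may be among those counted. The deposited values are FPKM made by the authors, a unit inferred here because low values of a gene are whole multiples of a step that differs between genes. These steps returned whole reads for all 255815 values above 0 of tested IDs, within 0.003 reads. "Read" stands for reads or fragments.

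An ID was tested if 3 or more libraries reached 1 FPKM. The test was limma 3.58.1 (R 4.3.3) on log2(FPKM + 1), a pseudocount of 1, with 1 mean per group over 12 libraries, a variance trend and Benjamini-Hochberg adjustment over 22017 IDs. Groups came from the sample titles. Intervals are 95%. Those of log2 differences come from the limma SE and take in the spread between libraries. Those of read ratios are exact binomial, per total reads, on reads pooled over the libraries of a group. They take in counting error alone, like the floor of 3 reads. Reads carry no molecular identifiers, so copies of the same molecule may be counted as separate reads. Alternatives were another pseudocount, no filter, 3 scalings, removal of the length trend, a replicate block, fits of the groups compared, and leaving out libraries. Voom on recovered reads with each library's total was added after seeing the data, in place of a planned fit with TMM factors.

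The 10 members and the list were chosen with earlier results of these data known. All members are named; the rule for likeness took the IDs with the highest r with the most abundant member, of which the top 2 are given. Other expansins, seed markers and sequences were not analysed here.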

Additional observations from a re-analysis of the deposited data

Results flagged for a closer look

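For 2 genes the salt difference was not the same in the genotypes by a test of that difference, the interaction in limma. For EXPB4 the salt difference in osmft1 minus that in WT was 1.44 ± 0.30 (SE; adjusted p = 0.0187): 3 of 3 osmft1 salt libraries kept 32.5% to 55.7% of the osmft1 water mean, against 11.5% to 20.6% of the WT water mean in 3 of 3 WT salt libraries. For EXPA5 it was 1.32 ± 0.31 (SE; limma, adjusted p = 0.0253): the osmft1 salt libraries stood at 239.9% to 325.4% of the osmft1 water mean, against 56.5% to 119.3% of the WT water mean in the WT salt libraries. The EXPA5 call was lost under 7 of 21 other settings, and the EXPB4 call without both osmft1 libraries numbered 1. In water the osmft1 level was lower by 0.79 for EXPB4 and by 0.62 for EXPA5 (limma, adjusted p = 0.017 and 0.0505). In salt neither gene passed between the genotypes (limma, adjusted p = 0.0966 and 0.086). The part that germination stage has in either result was not tested.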

How the results depend on the processing

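Of the 18 comparisons of a gene that passed the test, 12 passed under every alternative run, among them all 7 falls in WT salt. The number of genes called in osmft1 against WT in water was 2, and it was 1 (EXPB4) with no filter, without the 50 most abundant IDs, with the length trend taken out or with the replicate block, 4 with voom, and 0 to 3 without 1 library. With median-ratio or upper-quartile scaling it was 3. With a pseudocount of 0.1 it was 2, with EXPA5 in place of EXPA8. In salt the number called in osmft1 against WT was 0 to 1 without 1 library. For salt in osmft1 it was 7, and 5 to 8 without 1 library. There it was 6 with no filter, with median-ratio scaling or in a fit of the groups compared, and 8 with voom. For the interaction it was 2, and 1 with no filter, 0 without both osmft1 libraries numbered 1, and 1 to 3 without 1 library. The replicate block changed no other count; same-numbered libraries had deviations with an r over 0.1 in 4 of 18 pairs, so the numbers were not taken as pairs. Voom with TMM factors was planned and is not given, and voom on library totals was chosen after seeing the data.

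No called gene changed direction. Among those not called, EXPA2 in WT salt against water was 0.015 without the 50 most abundant IDs and -0.26 to 0.071 without 1 library. EXPB6 in osmft1 against WT in water was -0.052 with median-ratio scaling. EXPA3 there was 0.072 with the length trend taken out, 0.19 without both osmft1 libraries numbered 1 and -0.47 to 0.19 without 1 library. Its interaction was -0.029, -0.19 and -0.085 to 0.57 under the same settings. Without 1 library EXPA4 ran from -0.030 to 0.21 for salt in osmft1 and from -0.31 to 0.054 for the interaction, and EXPA5 for salt in WT from -0.28 to 0.12. The causes were not tested. Depth limits EXPA3, EXPA8, EXPA1 and EXPB2 in salt, where most libraries held under 20 reads.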
